A study of Mus musculus with 16 samples.

Results

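The livers of mice with a liver-specific knockout of Degs1 were compared with control livers after high-fat feeding, over every gene expressed in the tissue. The members were chosen by the titles of the samples, which name diet and genotype: 4 high-fat knockout livers (title numbers 82, 89, 90 and 92) and 4 high-fat control livers (61, 70, 71 and 76), which are 8 of the 16 livers in the series. The other 8 livers are chow-fed controls and knockouts, 4 of each, which enter the same model and serve as a comparison. Of 53801 gene IDs in the table, 14351 passed a filter on low counts and were tested. Strain, age, sex, length of feeding, the Cre driver and the exons removed are not stated in the labels. Title numbers differ for every liver, but nothing else in the labels says that the livers came from separate animals, so p-values measure the spread between these samples. High-fat controls have lower title numbers than high-fat knockouts, so genotype cannot be told apart from anything that goes with that number.

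Degs1 encodes dihydroceramide desaturase, which introduces the double bond that turns dihydroceramide into ceramide, the last step of ceramide synthesis in the endoplasmic reticulum. Ceramides are the precursors of sphingomyelin and glycosphingolipids, and in liver they are known for dampening insulin signalling and for accumulating when fat is oversupplied. Whole liver RNA comes mainly from hepatocytes, with smaller contributions from stellate cells, which make collagen, and from endothelial cells, Kupffer cells and recruited leukocytes. In such bulk tissue, more cells of a type and more RNA per cell cannot be told apart.

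The 8 high-fat libraries held 13572441 to 18728453 counts. Albumin (Alb), the main hepatocyte product, was at 40870 to 78380 CPM (counts scaled to a common library size) in all 8. Markers of fat, pancreas, muscle, neutrophils and T cells were low, with summed levels up to 37.6 CPM for fat and pancreas and 28.4 CPM for T and NK cells. High-fat control 3 stood apart from the other 7 livers. On a principal component that held 53.9% of the variance it was at 103.25, and control 4 at 35.22, with the other 6 livers between -35.14 and -7.02. The share of counts on gene models annotated as intronic or unconfirmed was 0.0218% in control 3 and 0.0512% in control 4. It was 0.123% and 0.164% in controls 2 and 1 and 0.162% to 0.191% in the knockouts. It is called the unspliced share here, but reads from introns of other genes were not measured. In the chow livers of the same fit it was 0.0263% to 0.0411% in controls and 0.0463% to 0.0878% in knockouts. High-fat control 4 was thus within the chow range and high-fat control 3 below it. On chow every knockout was above every control. Malat1, a nuclear noncoding RNA, was at 179.6 CPM in high-fat control 3, 1021 CPM in control 4, and 2716 to 4028 CPM in the other 6 high-fat livers. Globin and heme genes of red blood cells summed to 815 CPM in control 3 and to 220 to 381.5 CPM in the other 7 high-fat livers. Leaving out controls 3 and 4 together, chosen after seeing the data, leaves 2 controls, and its values stand beside the lists that it moves.

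The targeted gene was checked first. Degs1 (ENSMUSG00000038633; GRCm38 chr1:182275772-182282804, minus strand) was at 60.2, 62.2, 101 and 70.3 CPM in control livers 1 to 4. It was at 41.6, 28.1, 26.1 and 29.2 CPM in knockout livers 1 to 4. Every knockout liver was below every control liver, and control 3 was the highest of the 8. The mean fell from 73.4 ± 18.9 to 31.3 ± 7.01 CPM (SD, n = 4 each), a log2 fold change of -1.23 (standard error, SE, 0.17; edgeR adjusted p = 0.00376). An exact permutation test, two-sided, gave p = 0.0286, which no split of 4 against 4 can go below. Without controls 3 and 4 the log2 fold change was -0.97 (edgeR adjusted p = 0.0475). Counts cover the whole gene, so the level that remained includes any transcripts from cells other than hepatocytes and any from outside the removed part. Of 128 genes tested within 10 Mb of Degs1, 0 were called, and the groups did not overlap for 11 on the higher side (8.59%, against 5.46% of all genes) and 8 on the lower side (6.25%, against 7.78%).

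Collagens, an interferon-responsive ubiquitin ligase, a p53 target and a glutathione transferase rose in the high-fat knockout, and urinary proteins and enzymes of amino acid and drug metabolism fell. edgeR called 16 of 14351 genes at an adjusted p under 0.05 (0.111%), of which 9 rose (0.0627%) and 7 fell (0.0488%). The genes that rose were Col1a1, Col1a2, Col5a2, Adamts2, Gstm3, Phlda3, Emp1, Ano10 and Rnf213. Those that fell were Degs1, Oat, Lhpp, Cyp2c37, Gna14, Mup11 and Mup15. The 4 knockout livers lay entirely above or below the 4 controls in all 16. Over all genes, every knockout liver was higher for 784 genes (5.46%) and lower for 1116 (7.78%). An unadjusted edgeR p under 0.05 was reached by 1225 genes on the higher side (8.54%) and 1841 on the lower side (12.8%). DESeq2, an alternative on the same counts, called 265 higher (1.85%) and 368 lower (2.56%), all 16 among them. In what follows a gene is called where edgeR calls it, and where it called 0 genes of a list the DESeq2 count and the count at an unadjusted edgeR p under 0.05 are given beside it. Fitted on the 8 high-fat livers alone, edgeR called 1 gene, Mup15, and with a covariate for the unspliced share it called 0, with the smallest adjusted p at 0.0536. Leaving out single livers left 3 of the 16 calls without high-fat knockout 2 or high-fat control 4 (Col1a1, Degs1 and Gstm3), 4 without control 2, 6 without knockout 1, 8 without control 1, 9 without control 3, 10 without knockout 3 and 13 without knockout 4.

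**Figure D1:**
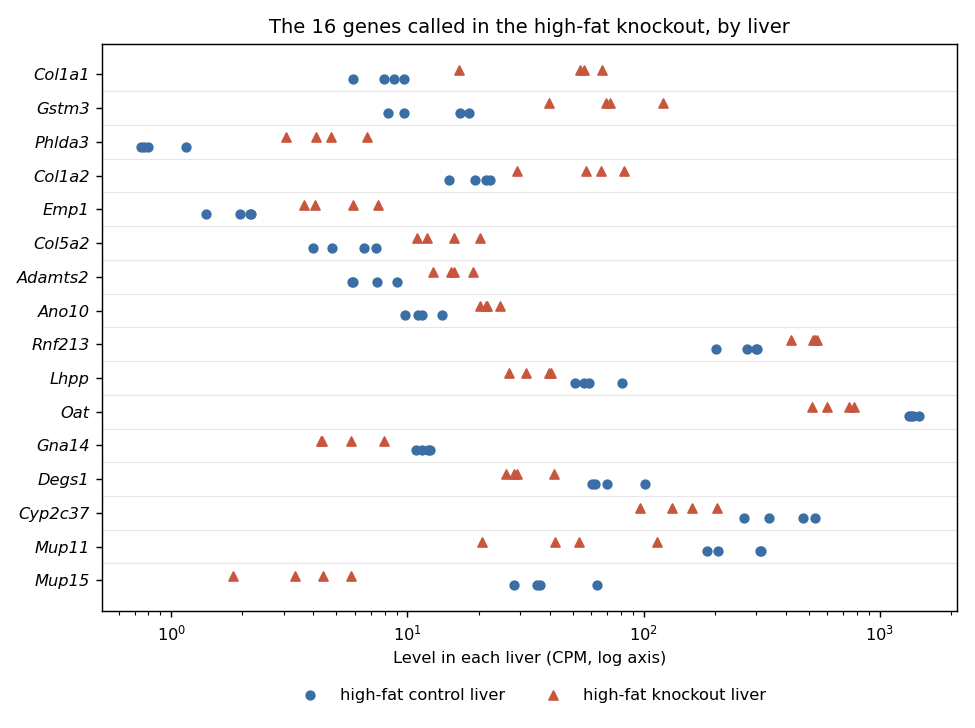
Level of each of the 16 called genes in the 4 high-fat control livers (circles) and the 4 high-fat knockout livers (triangles), in CPM on a log axis. The triangles lie to 1 side of the circles in every gene, and knockout 4 is the knockout liver nearest to the controls for Col1a1 (16.5 CPM) and Col1a2 (29.1 CPM).

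Genes of the fibrillar matrix formed the largest group among those that rose. Col1a1 (GRCm38 chr11:94936224-94953042) and Col1a2 encode the chains of type I collagen, the main scar collagen of liver. Col1a1 was at 5.9, 7.96, 8.8 and 9.65 CPM in the controls and at 66.5, 53.6, 56 and 16.5 CPM in the knockouts. Knockout 4 was far below the other 3 knockout livers, yet above every control. The log2 fold change was 2.57, SE 0.35 (edgeR adjusted p = 0.00376), and the call held with each liver left out in turn (edgeR adjusted p up to 0.0303), but not without controls 3 and 4 together (2.80, edgeR adjusted p = 0.0552). Col1a2 was at 15, 19.2, 21.5 and 22.3 CPM in controls and at 82.8, 66.2, 57.3 and 29.1 CPM in knockouts, in the same order of livers (log2 fold change 1.59, SE 0.27, edgeR adjusted p = 0.0257). Its call was lost in 5 of the 16 leave-one-out fits (edgeR adjusted p up to 0.143).

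Adamts2, the protease that removes the amino-terminal propeptide of procollagen, rose from 5.9, 7.45, 5.82 and 9 CPM to 15.2, 19, 15.7 and 12.8 CPM (log2 fold change 1.15, SE 0.20, edgeR adjusted p = 0.0335). Col5a2, a chain of the type V collagen that is built into type I fibrils, rose from 4.82, 7.33, 3.99 and 6.55 CPM to 20.4, 15.7, 12.1 and 11 CPM (1.38, SE 0.25, edgeR adjusted p = 0.0415). Both calls depended on single livers: over the leave-one-out fits the edgeR adjusted p reached 0.166 for each. Col3a1, the type III chain, missed the threshold at 42, 64.9, 70.9 and 79.2 CPM in controls against 232.6, 181, 149 and 90 CPM in knockouts (log2 fold change 1.34, SE 0.27, edgeR adjusted p = 0.0584). Its groups did not overlap, and knockout 4 was again the lowest knockout.

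In the list of fibrillar collagens and the enzymes that process them, 4 of 31 genes tested rose, 0 fell, and 9 did not overlap on the higher side (29.0%, against 5.46% of all genes), and DESeq2 called 8 higher. The list's median log2 difference was 0.47, against 0.03 over all genes. Among basement membrane and other matrix genes edgeR called 0 of 40 and DESeq2 11, all higher, 23 had an unadjusted edgeR p under 0.05 on that side, 13 did not overlap on the higher side (32.5%) and 37 had a higher mean in knockouts (median 0.55). The microfibrillar chains Col6a1, Col6a2 and Col6a3 had log2 differences of 0.80, 0.95 and 1.15, SE 0.18, 0.20 and 0.24 (edgeR adjusted p = 0.0762, 0.0635 and 0.0662). Fbn1, the main protein of elastic microfibrils, had 0.81, SE 0.19 (edgeR adjusted p = 0.0881). With controls 3 and 4 left out the medians were 0.58 for the fibrillar list and 0.60 for the other matrix list. In that fit 12 and 21 of their members had an unadjusted p under 0.05 on the higher side, against 5.8% of all genes. With offsets for transcript length and GC content the medians were 0.27 and 0.25, Col6a3 had 0.52 and Fbn1 0.23. Under those offsets Col1a1 kept its call (2.10, edgeR adjusted p = 0.04). Col1a2, Adamts2 and Col5a2 lost theirs (edgeR adjusted p = 0.103, 0.121 and 0.0573).

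Emp1, a small tetraspan membrane protein, rose from 2.17, 1.4, 1.96 and 2.15 CPM in controls to 7.49, 5.86, 4.05 and 3.66 CPM in knockouts (log2 fold change 1.45, SE 0.27, edgeR adjusted p = 0.0427). That call was lost in 12 of the 16 leave-one-out fits (edgeR adjusted p up to 0.189). Myof, a membrane repair protein, had 1.10, SE 0.21 (edgeR adjusted p = 0.0584). Markers of the cells that make this matrix were mixed. Of 23 stellate cell and myofibroblast genes, edgeR called 0 and DESeq2 4, all higher, and 5 had an unadjusted edgeR p under 0.05 on that side. A higher mean was seen in 16, 4 did not overlap on the higher side (17.4%) and 0 on the lower side, and the median log2 difference was 0.24, or 0.13 without knockout 4. With controls 3 and 4 left out the median was 0.28, 20 had a higher mean, 8 did not overlap on the higher side (34.8%, against 11.6% of all genes in that fit) and 6 had an unadjusted p under 0.05. Cygb, a globin of stellate cells, was at 5.14 to 5.83 CPM in controls and 8.72 to 9.93 CPM in knockouts (0.72, SE 0.16, edgeR adjusted p = 0.0726). Tgfb1, the cytokine that drives collagen production, had 0.83, SE 0.19 (edgeR adjusted p = 0.0843), and Vim, an intermediate filament of mesenchymal cells, 0.71, SE 0.17 (0.0918). Pdgfrb, the receptor for platelet-derived growth factor on these cells, was at 12.2 to 18.9 CPM in controls and 26.7, 31.5, 22.9 and 16.7 CPM in knockouts, where knockout 4 lay within the controls (0.64, SE 0.19, edgeR adjusted p = 0.108). Other defining markers also overlapped: Lrat, which stores retinol, was at 17.1 to 53 CPM in controls and 23.7 to 35.6 CPM in knockouts. Des was at 3.63 to 5.16 and 4.42 to 6.13 CPM, and Acta2, the actin of activated cells, at 1.42 to 3.65 and 2.24 to 5.99 CPM. The summed level of the 25 stellate genes was 565 to 679 CPM in controls and 629 to 718 CPM in knockouts. The part of stellate cell number in the collagen result was not tested.

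**Figure D2:**
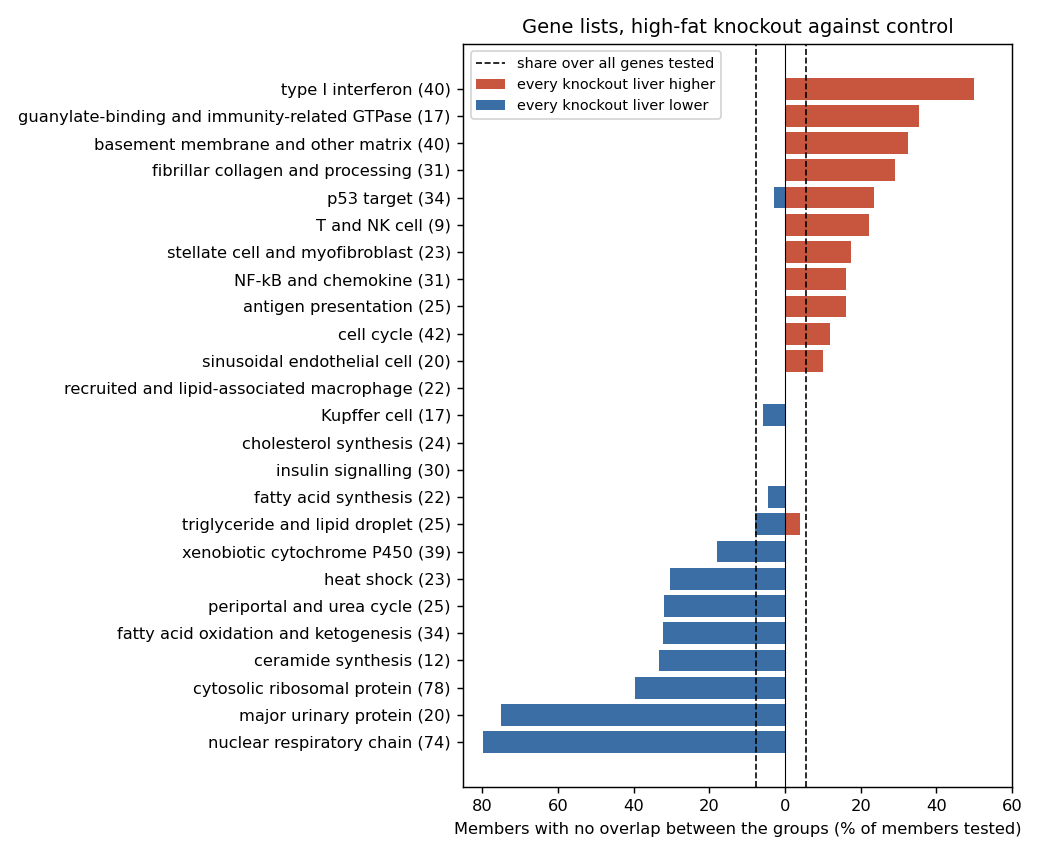
For 25 gene lists, the share of members tested for which all 4 high-fat knockout livers were higher (right) or lower (left) than all 4 controls, with the number of members tested in brackets. Dashed lines mark the shares over all 14351 genes, 5.46% higher and 7.78% lower. Type I interferon genes reach 50.0% on the higher side and respiratory chain genes 79.7% on the lower side.

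Genes that answer to interferon were the group most often higher in every knockout liver. Interferons signal through Stat transcription factors, and target promoters can hold a repeated GAAA element. The targets include sensors and nucleases of foreign RNA and GTPases of cell-autonomous defence. Rnf213, a giant ubiquitin ligase of this response, rose from 273.5, 298, 202 and 301 CPM in controls to 421, 541, 532 and 519 CPM in knockouts. No liver overlapped, control 3 was the lowest, and the log2 fold change was 0.91, SE 0.15 (edgeR adjusted p = 0.0257). The call was lost without high-fat controls 1, 2 or 4 or high-fat knockouts 2 or 3 (edgeR adjusted p up to 0.143, with log2 fold changes of 0.81 to 0.99 over all leave-one-out fits).

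Of 40 type I interferon genes tested, Rnf213 was the only one called by edgeR. For 20 of them every knockout liver was above every control (50.0%, against 5.46% of all genes), 38 had a higher mean, 30 had an unadjusted p under 0.05 on the higher side and 17 were called by DESeq2. The median log2 difference was 0.77, and -0.14 for the same genes on chow. The members of the list were summed to 962 to 1310 CPM in controls and 1510 to 1830 CPM in knockouts. Without controls 3 and 4 the median was 0.96, and 32 of 40 had an unadjusted p under 0.05 on the higher side, against 5.8% of all genes. Oas1g, a sensor of double-stranded RNA, was at 0.136, 0.51, 0.677 and 0.35 CPM in controls and 0.884, 2.52, 2.45 and 1.73 CPM in knockouts (log2 difference 2.17, SE 0.51, edgeR adjusted p = 0.0872). Oasl2, a relative of it, had 1.01, SE 0.24 (edgeR adjusted p = 0.0923). Uba7, the activating enzyme for the ubiquitin-like modifier Isg15, was at 10.9 to 16.6 CPM in controls and 22.7 to 27.1 CPM in knockouts (0.82, SE 0.16, edgeR adjusted p = 0.0541).

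The guanylate-binding and immunity-related GTPases, which respond mainly to interferon gamma, had a median log2 difference of 0.90 over 17 genes, with 0 called by edgeR, 4 by DESeq2, 12 at an unadjusted edgeR p under 0.05 and 6 higher in every knockout liver (35.3%). Gbp10 was at 2.78, 5.92, 7.38 and 8.5 CPM in controls and 15.4, 16.8, 36.8 and 23.6 CPM in knockouts (log2 difference 1.91, SE 0.38, edgeR adjusted p = 0.0584). Knockout 3 was the highest liver for Gbp10 and for Gbp4, and for Gbp3 it was the highest by a small margin. Gbp3 had 1.13, SE 0.25 (edgeR adjusted p = 0.0736), and Gbp4 1.28, SE 0.30 (0.0879). Several of these genes have close copies, so how reads were split among them is uncertain. Without knockout 3 the list's median was 0.48, and with any other liver left out it was at most 1.03. It was 1.26 without controls 3 and 4.

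The promoters of these genes, from RefSeq (GRCm38.p6), were searched for GAAANNGAAA on both strands of the 250 bases before the start, a spacing that the interferon-stimulated response element holds. The motif was found in 12 of 29 type I interferon genes with a promoter in the table (41.4%) and in 9 of 10 guanylate-binding and immunity-related GTPases (90.0%). It was found in 345 of 10365 genes tested (3.33%) and in 936 of 27025 promoters in all (3.46%). Genes outside these lists that were higher in every knockout liver held it in 23 of 534 (4.31%), and those lower in every knockout liver in 31 of 873 (3.55%). The stretches around the match are shown for the 6 interferon genes with the smallest p among those that hold one, read 5′ to 3′ on the gene's strand with the match in capitals, so that a match on the other strand begins with TTTC. They lie at chr3:142559969-142560038 (Gbp3, plus strand), chr5:120887614-120887661 (Oas1g, minus), chr5:120777695-120777764 (Oas3, minus), chr19:34583343-34583412 (Ifit3, plus), chr5:120907526-120907575 (Oas1a, minus) and chr8:61928004-61928073 (Ddx60, plus).

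Gbp3: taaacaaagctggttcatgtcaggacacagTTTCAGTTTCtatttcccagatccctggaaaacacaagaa
Oas1g: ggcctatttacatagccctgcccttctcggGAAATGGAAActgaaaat
Oas3: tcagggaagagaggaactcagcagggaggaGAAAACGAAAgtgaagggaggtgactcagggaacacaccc
Ifit3: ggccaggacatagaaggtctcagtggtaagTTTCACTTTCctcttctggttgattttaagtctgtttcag
Oas1a: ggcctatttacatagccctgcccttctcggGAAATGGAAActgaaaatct
Ddx60: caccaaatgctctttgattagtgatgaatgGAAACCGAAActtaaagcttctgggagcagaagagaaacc

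The Oas1g and Oas1a stretches are the same over the 48 bases they share, and the match lies within 20 bases of the start in both. In Ifit3 it lies 147 to 156 bases before the start. A match describes letters in the window and says nothing about binding.

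Leukocyte genes differed strongly among the 4 knockout livers, and the pattern was not the same for macrophages and T cells. Gpnmb, a glycoprotein of lipid-laden macrophages, was at 0.319 to 1.02 CPM in the controls. In the knockouts it was at 28.5 CPM in liver 1, 8.33 in liver 2, 1.76 in liver 3 and 0.932 in liver 4, so that knockout 4 was within the control range (log2 difference 3.89, SE 0.86, edgeR adjusted p = 0.0736). Itgax, an integrin of recruited macrophages and dendritic cells, had the same order, at 14.1, 9.05, 6.61 and 2.2 CPM against 2.03 to 3.6 CPM in controls (1.51, SE 0.37, edgeR adjusted p = 0.0953). Trem2, a lipid receptor of the same cells chosen after its values were seen, was at 7.59, 5.45, 1.49 and 1.47 CPM against 0.637 to 2.23 CPM in controls.

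Lpl, the lipoprotein lipase that these macrophages also make, was at 13.8 to 35.6 CPM in controls and 29.2 to 63.3 CPM in knockouts (log2 difference 0.92, SE 0.26, edgeR adjusted p = 0.103). On chow Lpl had 1.01, SE 0.26 (edgeR adjusted p = 0.353), with every knockout above every control. The 22 macrophage genes below had a median of -0.04 on chow. Ccr2, the chemokine receptor of incoming monocytes, was at 2.37 to 5.35 CPM in controls and 11.9, 6.53, 5.17 and 5.93 CPM in knockouts. Over the 22 genes of recruited and lipid-associated macrophages edgeR called 0 and DESeq2 3, all higher, 10 had an unadjusted edgeR p under 0.05 on that side, 0 separated the groups and the median log2 difference was 0.62 (0.39 without control 1 and 0.41 without knockout 1). Without controls 3 and 4 it was 1.22, and 14 of the 22 had an unadjusted p under 0.05 on the higher side (63.6%, against 5.8% of all genes in that fit). Their summed level was 332, 356.5, 711 and 473 CPM in controls 1 to 4 and 786, 590, 450 and 398 CPM in knockouts 1 to 4. Control 3 was thus above 3 of the 4 knockouts. The 17 genes of resident Kupffer cells had a median of 0.16, with 0 called by edgeR or DESeq2, 1 at an unadjusted edgeR p under 0.05 and 1 lower in every knockout liver (5.9%, against 7.78% of all genes). Their median was 0.53 without controls 3 and 4, with 16 of 17 higher and 0 at an unadjusted p under 0.05, and with a covariate for the unspliced share it was 0.65. The difference between the macrophage and Kupffer lists was not tested.

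T cell genes were highest in knockout 3. Cd8a, the co-receptor of cytotoxic T cells, was at 0.136, 0, 0.135 and 0.2 CPM in controls and 0.52, 0.617, 2.98 and 0.866 CPM in knockouts. Lck, the kinase of the T cell receptor, was at 0.203 to 0.8 CPM in controls and 0.936, 0.823, 3.3 and 0.866 CPM in knockouts, and the chemokine Ccl5 at 0.319 to 0.7 against 0.936, 0.926, 2.72 and 0.599 CPM. In these libraries 3 counts correspond to 0.15 to 0.203 CPM, so most control values of Cd8a rest on 3 counts or fewer. Of 14 T and NK cell genes 9 were tested, 0 were called by edgeR or DESeq2, 4 had an unadjusted edgeR p under 0.05 and 2 separated the groups on the higher side (22.2%, against 5.46% of all genes). The summed level of the 14 was 4.14 to 6.6 CPM in controls and 9.83, 7.61, 28.4 and 6.79 CPM in knockouts. The median log2 difference was 1.52, 0.49 without knockout 3 and 1.83 without controls 3 and 4. Of 20 sinusoidal endothelial genes 0 were called by edgeR or DESeq2 and 0 had an unadjusted edgeR p under 0.05, with a median of -0.06, or 0.08 without controls 3 and 4. Of 10 cholangiocyte genes 0 were called by either tool, 1 in each direction had an unadjusted edgeR p under 0.05, and the median was 0.17, or 0.29 without controls 3 and 4. B cell genes overlapped, with 0 of 6 called by either tool, 0 at an unadjusted edgeR p under 0.05 and sums of 16.6 to 124 CPM in controls and 22.3 to 135 CPM in knockouts. Their median was -0.07, but 0.92 without controls 3 and 4, where all 6 had a higher mean, and -0.83 without knockout 3.

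Antigen presentation and NF-kB genes lay between these patterns. Ciita, the switch for class II genes, was at 1.42 to 4.05 CPM in controls and 9.67, 8.08, 13.4 and 3.86 CPM in knockouts (log2 difference 1.63, SE 0.38, edgeR adjusted p = 0.0872). Cd74, the class II invariant chain, was at 48.6 to 84.3 CPM in controls and 133, 129, 194 and 61.8 CPM in knockouts (1.04, SE 0.27, edgeR adjusted p = 0.0977). Knockout 4 was within the controls for both, and knockout 3 was the highest. Of 25 antigen presentation genes 0 were called by edgeR, 7 by DESeq2, 11 had an unadjusted edgeR p under 0.05 and 4 were higher in every knockout liver (16%). The median was 0.35, and 0.23 without control 1 or without knockout 3. It was 0.60 without controls 3 and 4, with 24 of 25 higher, 17 without overlap (68.0%, against 11.6% of all genes in that fit) and 15 at an unadjusted p under 0.05, and with a covariate for the unspliced share it was 0.63. The class I gene H2-Q4 had a log2 difference of 0.55, SE 0.16 (edgeR adjusted p = 0.103). H2-Q4 has close copies, so its count is uncertain. Of 31 NF-kB targets and chemokines edgeR called 0 and DESeq2 3, all higher, 16 had an unadjusted edgeR p under 0.05 on that side, 28 had a higher mean, and 5 separated the groups on the higher side (16.1%; median 0.47, and 0.52 without controls 3 and 4). Tnfaip3, a brake on NF-kB that is itself a target, was at 2.84 to 7.73 CPM in controls and 8.06 to 13.4 CPM in knockouts (1.03, SE 0.27, edgeR adjusted p = 0.0977). Relb, an NF-kB subunit, had 1.21, SE 0.33 (edgeR adjusted p = 0.0981). Icam1, an adhesion molecule for leukocytes, overlapped, at 7.64 to 14.9 against 11.8 to 22.9 CPM. The part of leukocyte content in the interferon and antigen presentation results was not tested.

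**Figure D3:**
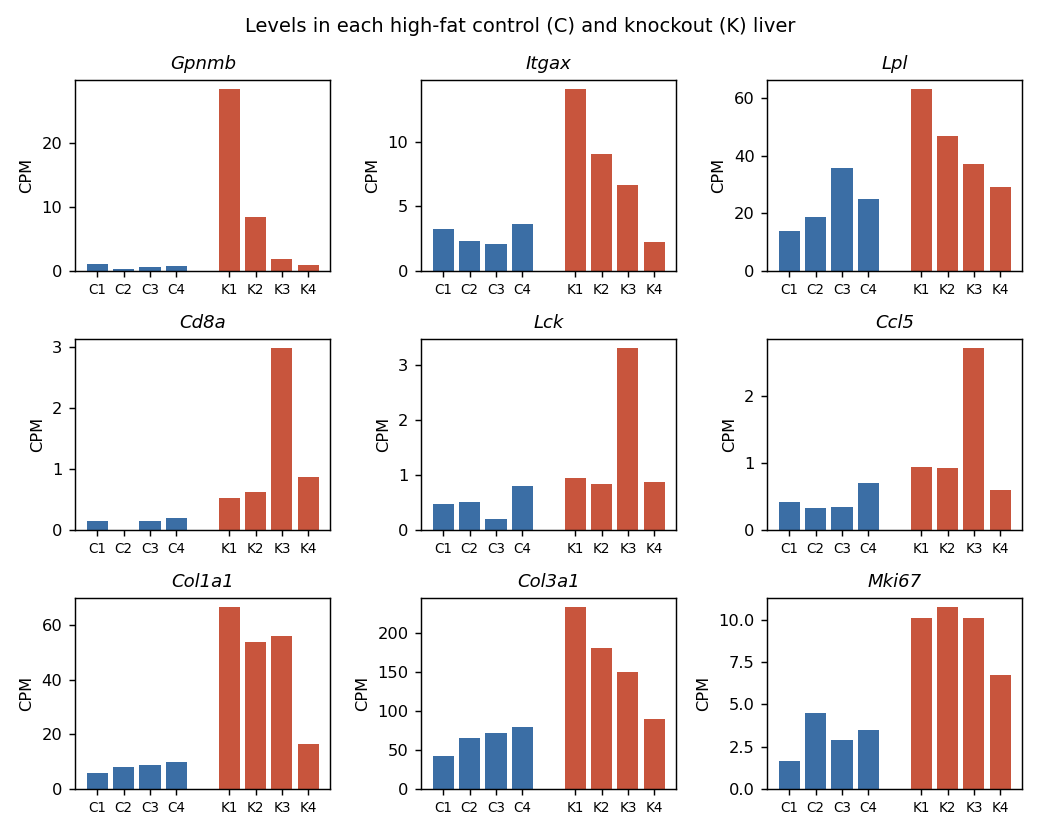
Levels of 9 genes in each high-fat control liver (C1 to C4) and knockout liver (K1 to K4), in CPM, with 1 bar for each liver. Gpnmb and Itgax are highest in K1, Cd8a, Lck and Ccl5 in K3, and Col1a1, Col3a1 and Mki67 are lowest in K4 among the knockouts.

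Phlda3, a p53 target that restrains Akt by competing for membrane lipids, rose at a low level. It was at 0.746, 0.764, 1.15 and 0.8 CPM in controls and 3.07, 4.73, 4.1 and 6.73 CPM in knockouts, where knockout 4 was the highest liver. The log2 fold change was 2.42, SE 0.37 (edgeR adjusted p = 0.0129), and the call was lost without high-fat control 2 or 4 or knockout 2 (edgeR adjusted p up to 0.0592). Of 34 p53 targets tested 1 was called by edgeR and 5 by DESeq2, all higher, 8 were higher in every knockout liver (23.5%, against 5.46% of all genes) and 1 lower (2.9%, against 7.78%), with a median log2 difference of 0.29 and of 0.24 without controls 3 and 4. Cdkn1a, an inhibitor of the cell cycle and the best known of these targets, is named outside the rule and after its values were seen. It was at 6.24, 4.59, 3.66 and 1.25 CPM in controls and 12.2, 17.5, 12.6 and 12.5 CPM in knockouts (log2 difference 1.81, SE 0.51, edgeR adjusted p = 0.103). Gdf15, a secreted stress hormone, was at 3.86 to 7.2 CPM in controls and 15.5, 27.9, 16.3 and 5.99 CPM in knockouts, where knockout 4 overlapped the controls (1.74, SE 0.35, edgeR adjusted p = 0.0584). Gtse1, a regulator of p53 late in the cell cycle, had 1.76, SE 0.45 (edgeR adjusted p = 0.0953).

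Genes of dividing cells were on the same side. Mki67, the Ki-67 antigen of cycling cells, was at 1.63, 4.46, 2.91 and 3.5 CPM in controls and 10.1, 10.8, 10.1 and 6.73 CPM in knockouts (log2 difference 1.59, SE 0.33, edgeR adjusted p = 0.0664). Cenpe, a motor protein of the mitotic spindle, had 1.88, SE 0.43 (edgeR adjusted p = 0.084). Of 42 cell cycle genes 0 were called by edgeR and 2 by DESeq2, 8 had an unadjusted edgeR p under 0.05, all of them higher, and 5 were higher in every knockout liver (11.9%), with a median of 0.47, of 0.80 without control 3 and of 0.85 without controls 3 and 4. Which cell type they come from cannot be told from bulk counts.

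Gstm3, a mu-class glutathione transferase that conjugates reactive compounds, rose more than any other called gene apart from Col1a1. It lies on chr3:107963696-107969283 and was at 8.28, 18.2, 16.7 and 9.65 CPM in controls and 121, 72.2, 39.6 and 69 CPM in knockouts. Its groups were far apart, with knockout 3 the lowest knockout (log2 fold change 2.52, SE 0.32, edgeR adjusted p = 0.00376). This call held with each liver left out in turn (edgeR adjusted p up to 0.0169), and not without controls 3 and 4 together (2.51, edgeR adjusted p = 0.0538). Gstm1, the abundant liver member, was at 331, 534, 489 and 389 CPM in controls and 803, 859, 609 and 799.9 CPM in knockouts (0.82, SE 0.19, edgeR adjusted p = 0.0809). Of the 50-base windows of the Gstm3 transcript 28.8% also occur in other genes, and 23.1% of those of Gstm1, so part of their reads cannot be assigned with certainty. Pgd, an NADPH-producing enzyme of the pentose phosphate pathway, overlapped (0.67, SE 0.19, edgeR adjusted p = 0.103). Over all 43 Nrf2 targets and glutathione genes edgeR called 1, DESeq2 called 3 higher and 1 lower, and the median was 0.14, or 0.20 without controls 3 and 4. Of these genes 4 were higher (9.3%, against 5.46% of all genes) and 2 lower (4.7%, against 7.78%) in every knockout liver. Without controls 3 and 4, 11 higher and 1 lower had an unadjusted p under 0.05. Those are 25.6% and 2.3%, against 5.8% and 3.7% of all genes in that fit. The heat shock genes leaned the other way, with 0 of 23 called by edgeR, 2 by DESeq2 and 6 at an unadjusted edgeR p under 0.05. Of the 23, 7 were lower in every knockout liver (30.4%), and the median was -0.27, or -0.35 without controls 3 and 4. In that last fit 12 did not overlap on the lower side (52.2%, against 14.8% of all genes) and 4 had an unadjusted p under 0.05. Among the heat shock genes Hspa8, a constitutive chaperone, had -0.65, SE 0.23, and Fkbp4, a co-chaperone of steroid receptors, -0.57, SE 0.15 (edgeR adjusted p = 0.131 and 0.0981).

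Ano10, of the anoctamin family of membrane proteins, and Gna14, a G protein alpha subunit of the Gq class, are in none of the lists. Ano10 rose from 14, 9.81, 11.1 and 11.5 CPM to 24.6, 20.3, 21.6 and 21.4 CPM, with little spread in either group (log2 fold change 0.92, SE 0.15, edgeR adjusted p = 0.0191). Gna14 fell from 11.5, 12.4, 10.8 and 12.3 CPM to 4.37, 4.32, 5.76 and 7.99 CPM (-1.07, SE 0.20, edgeR adjusted p = 0.0479). Ano10 lost its call in 4 and Gna14 in 13 of the 16 leave-one-out fits (edgeR adjusted p up to 0.0804 and 0.209). Ucp2, an inner mitochondrial membrane carrier, was at 11.4 to 16 CPM in controls and 19.3 to 27.6 CPM in knockouts and missed the threshold (0.88, SE 0.18, edgeR adjusted p = 0.0635).

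Among hepatocyte products, the major urinary proteins stood out on the lower side. They are small carriers of pheromones, made by liver under growth hormone control and encoded by a cluster of near-identical genes on chromosome 4. Mup15 (chr4:61435790-61439743) was at 28.2, 63.6, 36.6 and 35.3 CPM in controls and 1.82, 5.76, 4.37 and 3.33 CPM in knockouts. The highest knockout was well below the lowest control (log2 fold change -3.41, SE 0.63, edgeR adjusted p = 0.0415). Mup11 (chr4:60658466-60662411) was at 315, 310.2, 185 and 206 CPM in controls and 20.6, 42, 113 and 53.5 CPM in knockouts, where liver 3 was the highest knockout (-2.15, SE 0.38, edgeR adjusted p = 0.0335). Mup15 lost its call in 10 and Mup11 in 8 of the 16 leave-one-out fits (edgeR adjusted p up to 0.15 and 0.166). All 20 family members tested had a lower mean, 15 were lower in every knockout liver (75%, against 7.78% of all genes), 2 fell by edgeR and 14 were called lower by DESeq2.

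The summed level of the family was 10100 to 16600 CPM in controls and 5390 to 9070 CPM in knockouts, and the median log2 difference of its members was -1.75. Without controls 3 and 4 the median was -2.07, and for the same genes on chow it was -0.56. Every 50-base window of the Mup15 transcript occurs in another gene as well, 81.8% of them in Mup2, and 89.0% of those of Mup11 do. The counts of single members are therefore uncertain, since the labels do not say how reads with several matches were counted. Mup3, of which 15.6% of windows are shared, was at 5829, 7713, 11510 and 7092 CPM in controls and 3200, 4267, 5786 and 5532 CPM in knockouts. It is named outside the rule, for its sequence and its level, and its log2 difference was -0.78, SE 0.23 (edgeR adjusted p = 0.108). Mup17 had -3.51, SE 0.72 (edgeR adjusted p = 0.0635), with 78.1% of its windows shared. On chow its log2 difference was -3.78 (edgeR adjusted p = 0.166).

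Oat and Lhpp, which fell together, are neighbours on chromosome 7. Oat (chr7:132557478-132576398), the ornithine aminotransferase of pericentral hepatocytes, was at 1335, 1459, 1382 and 1349 CPM in controls and 777, 516.5, 595 and 741 CPM in knockouts (log2 fold change -1.07, SE 0.18, edgeR adjusted p = 0.0257). Lhpp (chr7:132610638-132706420), a histidine phosphatase, was at 58.9, 55.8, 81.3 and 51.3 CPM in controls and 40.4, 26.9, 31.9 and 39.9 CPM in knockouts (-0.83, SE 0.16, edgeR adjusted p = 0.0455). For both genes the knockout livers 2 and 3 were lower than the knockout livers 1 and 4. The genes are 34.2 kb apart on opposite strands, with 0 tested genes between them, and no 50-base window of either occurs in another gene. Oat lost its call without high-fat control 2 or 4 or knockout 2 or 3, and Lhpp in 14 of the 16 leave-one-out fits (edgeR adjusted p up to 0.143 and 0.209).

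Cyp2c37, a cytochrome P450 that oxidises arachidonic acid and drugs, fell from 338, 267, 531 and 471 CPM to 96.1, 132, 205 and 161 CPM (log2 fold change -1.44, SE 0.26, edgeR adjusted p = 0.0398). It shares 30.1% of its windows with other genes, so part of its count is uncertain. Cyp2c37 lost its call in 8 of the 16 leave-one-out fits (edgeR adjusted p up to 0.189). Of 39 xenobiotic cytochromes tested it was the only one called by edgeR, DESeq2 called 6 lower, 7 were lower in every knockout liver (17.9%) and 35 had a lower mean (median -0.39). The abundant Cyp2c29 was at 1068 to 2339 CPM in controls and 836 to 1277 CPM in knockouts (-0.86, SE 0.22, edgeR adjusted p = 0.0953). Cyp3a13, a steroid and drug hydroxylase, was at 169 to 264 against 98.8 to 129 CPM (-0.85, SE 0.23, edgeR adjusted p = 0.0989), and Cyp2j5, an epoxygenase, had -0.54, SE 0.13 (0.0953). Without control 3, and also without controls 3 and 4, the median of the list was -0.18.

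Hepatocytes near the central vein and near the portal vein express different enzymes. Oat, Lhpp and Cyp2c37 are all in the list of 28 pericentral genes, where edgeR called these 3 lower (against 0.0488% of all genes) and DESeq2 4 lower and 1 higher. Its median was -0.24, or -0.26 without controls 3 and 4, with 4 lower (14.3%, against 7.78% of all genes) and 1 higher (3.6%, against 5.46%) in every knockout liver. The list summed to 17800 to 22600 CPM in controls and 12300 to 14700 CPM in knockouts, so the groups did not overlap. The gene on the higher side was Slc1a4, a neutral amino acid transporter, at 6.5 to 11 CPM in controls and 15 to 26 CPM in knockouts (1.18, SE 0.25, edgeR adjusted p = 0.0664).

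Periportal and urea cycle genes had a median of -0.42 over 25 genes, with 0 called by edgeR, 5 by DESeq2, 13 at an unadjusted edgeR p under 0.05 and 8 lower in every knockout liver (32.0%), and -0.32 without controls 3 and 4. Their sums overlapped, at 19400 to 24600 CPM in controls and 13800 to 20400 CPM in knockouts. Hpd, an enzyme of tyrosine breakdown, was at 2049 to 2835 CPM in controls and 1234 to 1696 CPM in knockouts (-0.69, SE 0.17, edgeR adjusted p = 0.0953). Arg1, the arginase of the urea cycle, was at 1343, 1162, 2354 and 1107 CPM in controls and 865, 784, 914 and 1052 CPM in knockouts (-0.72, SE 0.22, edgeR adjusted p = 0.108). Control 3 was far above the others. Etnppl, which breaks down phosphoethanolamine, had -0.62, SE 0.17 (edgeR adjusted p = 0.102), and Suox, the sulfite oxidase, -0.56, SE 0.11 (0.0584). Ttpa, the carrier that exports vitamin E, was at 564 to 1134 CPM in controls and 343 to 502.5 CPM in knockouts (-0.92, SE 0.20, edgeR adjusted p = 0.0664). Of 10 general hepatocyte markers 0 were called by edgeR or DESeq2, 3 had an unadjusted edgeR p under 0.05, 10 had a lower mean, 1 was lower in every knockout liver, and Hnf4a, the transcription factor of hepatocyte identity, overlapped at 378 to 636 against 453 to 557 CPM.

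Nuclear genes of the mitochondrial respiratory chain and ribosomal protein genes were lower together in the knockouts, and the size of that difference rested mainly on control liver 3. All 74 respiratory chain genes had a lower mean in knockouts, 59 were lower in every knockout liver (79.7%) and the median log2 difference was -0.62, with 0 called by edgeR, 38 by DESeq2 and 70 at an unadjusted edgeR p under 0.05. Ndufb9, a subunit of complex I, was at 151, 131, 341 and 146 CPM in controls and 107, 92.5, 92.5 and 112 CPM in knockouts (-0.93, SE 0.23, edgeR adjusted p = 0.0953). Ndufv2, a core subunit of the same complex, had -0.77, SE 0.19 (edgeR adjusted p = 0.0923). Control 3 was the highest liver for both. The list summed to 9825, 9229, 16960 and 10420 CPM in controls 1 to 4 and 8131, 7512, 7550 and 8496 CPM in knockouts 1 to 4. Without control 3 the median was -0.32, and without control 4 it was -0.68. Without controls 3 and 4 it was -0.28, all 74 genes still had a lower mean and 32 had an unadjusted p under 0.05 (43.2%, against 3.7% of all genes in that fit). With a covariate for the unspliced share it was -0.20, and with offsets for transcript length and GC content -0.27. The messages encoded in the mitochondrial genome had a median of -0.06 over 8 genes, with 0 called by edgeR or DESeq2, 0 at an unadjusted edgeR p under 0.05 and 0 that separated the groups. That median moved with the livers and the covariates too. It was -0.41 without controls 3 and 4, with all 8 lower and 5 without overlap (62.5%, against 14.8% of all genes in that fit), with the covariate for the unspliced share it was -0.49 and with length and GC offsets it was 0.37.

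Of the cytosolic ribosomal protein genes all 78 had a lower mean, 31 were lower in every knockout liver (39.7%), 0 were called by edgeR and 8 by DESeq2, 68 had an unadjusted edgeR p under 0.05 and the median was -0.59. Rpl35 was at 22.2, 15, 42.9 and 21.6 CPM in controls and 13.2, 13.5, 14.2 and 13.4 CPM in knockouts (-0.90, SE 0.24, edgeR adjusted p = 0.0981), and Rps26 had -0.67, SE 0.18 (0.0981). Without control 3 the median was -0.25, without control 4 it was -0.65 and without controls 3 and 4 it was -0.17. In that last fit 74 of 78 had a lower mean. Below both remaining controls in every knockout liver were 31 (39.7%, against 14.8% of all genes). On the lower side 2 of 78 had an unadjusted p under 0.05, against 3.7% of all genes. With a covariate for the unspliced share the median was -0.06. Genes lower in every knockout liver were also short and abundant: among protein-coding genes their median transcript length was 2351 bases and their median mean level 5.5 on the log2 CPM scale, against 3445 bases and 3.89 over all tested. Those higher in every knockout liver had medians of 4558 bases and 2.43. The parts of transcript length, of the unspliced share and of genotype in these shifts were not separated by any fit.

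**Figure D4:**
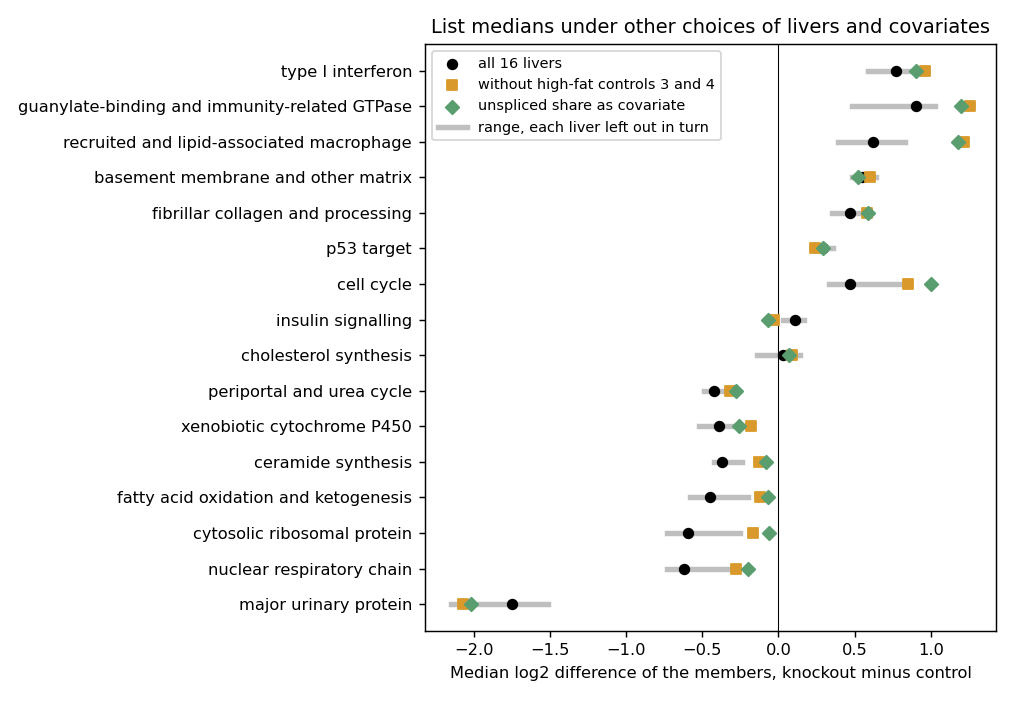
Median log2 difference, knockout minus control on the high-fat diet, of 16 gene lists in the fit of all 16 livers (circles), without high-fat controls 3 and 4 (squares) and with a covariate for the unspliced share (diamonds). Grey bars span the fits with each liver left out in turn. Ribosomal and respiratory chain medians move toward 0, to -0.17 and -0.28 without the 2 controls. So do those of fatty acid oxidation (-0.12) and ceramide synthesis (-0.13). Interferon, matrix and urinary protein medians are further from 0 in that fit. All of these stay on their side of 0 in the fits shown.

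Around ceramide, Degs1 was the only gene that edgeR called. Of 12 ceramide synthesis genes tested, Degs1 fell, DESeq2 called 3 lower including Degs1, 7 had an unadjusted edgeR p under 0.05, 4 including Degs1 were lower in every knockout liver (33.3%), and the median log2 difference was -0.37, or -0.24 without control 3 and -0.13 without controls 3 and 4. Cers2, the ceramide synthase for very long chains, was at 294, 287, 357 and 289 CPM in controls and 242, 223, 229 and 242 CPM in knockouts (-0.39, SE 0.13, edgeR adjusted p = 0.116). Ormdl1 and Ormdl2 restrain serine palmitoyltransferase, the entry enzyme of the pathway. Ormdl1 was at 18.8, 22.2, 59 and 27.3 CPM in controls and 17, 12.5, 15.9 and 17.5 CPM in knockouts (-1.02, SE 0.27, edgeR adjusted p = 0.0981, and -0.38 without controls 3 and 4), and Ormdl2 had -0.52, SE 0.17 (0.114). Control 3 was the highest liver for Cers2 and both Ormdl genes. Among the 30 genes of ceramide and sphingolipid turnover edgeR called 0 and DESeq2 1, 1 higher and 4 lower had an unadjusted edgeR p under 0.05, and the median was -0.02, or -0.10 without controls 3 and 4. S1pr1, the main receptor for sphingosine 1-phosphate on endothelium, was at 65.6 to 104 CPM in controls and 44.2 to 52.9 CPM in knockouts (-0.69, SE 0.19, edgeR adjusted p = 0.0981). Apom, which carries that lipid on lipoproteins, had -0.60, SE 0.19 (edgeR adjusted p = 0.115).

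In the lists of fat and glucose metabolism edgeR called 0 genes. Of 34 fatty acid oxidation and ketogenesis genes DESeq2 called 8 lower, 21 had an unadjusted edgeR p under 0.05 and 11 were lower in every knockout liver (32.4%), with a median of -0.45, or -0.20 without control 3 and -0.12 without controls 3 and 4. Acadm, the medium-chain dehydrogenase, was at 341, 385.5, 576 and 431 CPM in controls and 321, 252, 246 and 325 CPM in knockouts (-0.60, SE 0.17, edgeR adjusted p = 0.103), and Slc25a20, the carnitine carrier, had -0.66, SE 0.19 (0.103). Fatty acid synthesis genes had a median of 0.18 over 22, or 0.11 without controls 3 and 4, with 1 called higher by DESeq2 and 2 in each direction at an unadjusted edgeR p under 0.05. Acacb, which makes the malonyl-CoA that limits fat burning, was at 43.6 to 66.6 CPM in controls and 117, 159, 54 and 161 CPM in knockouts, where knockout 3 overlapped the controls (1.15, SE 0.32, edgeR adjusted p = 0.101). Srebf1, the lipogenic transcription factor, named after its values were seen, overlapped at 355 to 639 against 367 to 462 CPM (-0.21, SE 0.23, edgeR adjusted p = 0.613).

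Triglyceride and lipid droplet genes had a median of 0.0 over 25, with 1 called lower by DESeq2, and 1 higher and 3 lower at an unadjusted edgeR p under 0.05. Of the 25, 1 was higher (4.0%, against 5.46% of all genes) and 2 were lower (8.0%, against 7.78%) in every knockout liver. Agpat2, an enzyme of triglyceride assembly, was at 193 to 244 CPM in controls and 123 to 182 CPM in knockouts (-0.52, SE 0.15, edgeR adjusted p = 0.107). Cidec, a lipid droplet protein, was at 1.75 to 7.58 CPM in controls and 50.7, 8.08, 1.17 and 8.66 CPM in knockouts, so that knockout 1 alone stood out. G6pc, the last enzyme of glucose output, was at 492, 318, 160 and 978 CPM in controls and 203, 141, 91.7 and 64.9 CPM in knockouts (-1.96, SE 0.55, edgeR adjusted p = 0.103). The 23 gluconeogenesis and glycogen genes had a median of -0.24, or -0.14 without control 3, with 1 called lower by DESeq2 and 6 at an unadjusted edgeR p under 0.05. Insulin signalling genes had 0 of 30 that separated the groups, 0 called by DESeq2, 2 higher and 1 lower at an unadjusted edgeR p under 0.05, and a median of 0.11, or -0.03 without controls 3 and 4. Irs2, an insulin receptor substrate, overlapped at 8.06 to 17.1 against 13.6 to 31.5 CPM (0.87, SE 0.34, edgeR adjusted p = 0.158). Of 24 cholesterol synthesis genes 0 separated the groups, 0 were called by DESeq2 and 1 had an unadjusted edgeR p under 0.05, with a median of 0.03. In the bile acid and lipoprotein lists edgeR called 0 of 21 and 0 of 26, DESeq2 3 and 2, and 7 and 10 had an unadjusted edgeR p under 0.05 on the lower side, with medians of -0.32 (-0.18 without knockout 1) and -0.27 (-0.10 without control 3). Slco1b2, a bile acid and drug uptake transporter, had -0.77, SE 0.20, and Baat, which conjugates bile acids, -0.68, SE 0.16 (edgeR adjusted p = 0.0953 and 0.0843). Apoh, a plasma apolipoprotein, had -0.50, SE 0.13 (edgeR adjusted p = 0.0981).

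The same contrast was fitted in the chow-fed livers. Degs1 fell on chow as well, with a log2 fold change of -1.16, SE 0.17, on chow (edgeR adjusted p = 0.0123). Oat had -0.96, SE 0.18, and Gna14 -0.86, SE 0.21, on chow (edgeR adjusted p = 0.128 and 0.353). Mup15 had -2.11, SE 0.59, Mup11 -0.77, SE 0.36, and Lhpp -0.43, SE 0.16, on chow (edgeR adjusted p = 0.353, 0.522 and 0.442). Every chow knockout was below every chow control for Mup15 and Lhpp, and the chow groups overlapped for Mup11. Values nearer 0 on chow were those of some other called genes: Col1a1 had 0.07, SE 0.34, Phlda3 0.03, SE 0.38, Rnf213 -0.12, SE 0.15, Gstm3 0.42, SE 0.30, and Cyp2c37 0.10, SE 0.25, and 0 of these genes were called on chow. The interaction of genotype with diet, which tests the difference between the diets itself, called 0 of 14351 genes by edgeR (0.0%), with 1615 at an unadjusted p under 0.05 and 83 called by DESeq2. The unadjusted interaction p was 6.64e-05 for Col1a1, 0.00013 for Gstm3, 0.000166 for Rnf213 and 0.000269 for Phlda3, each with an edgeR adjusted p of 0.211. It was 0.751 for Degs1 and 0.654 for Oat (edgeR adjusted p = 0.929 and 0.9). At a mean log2 CPM of at least 2, 5 genes were higher and 86 lower in every knockout liver on both diets.

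**Figure D5:**
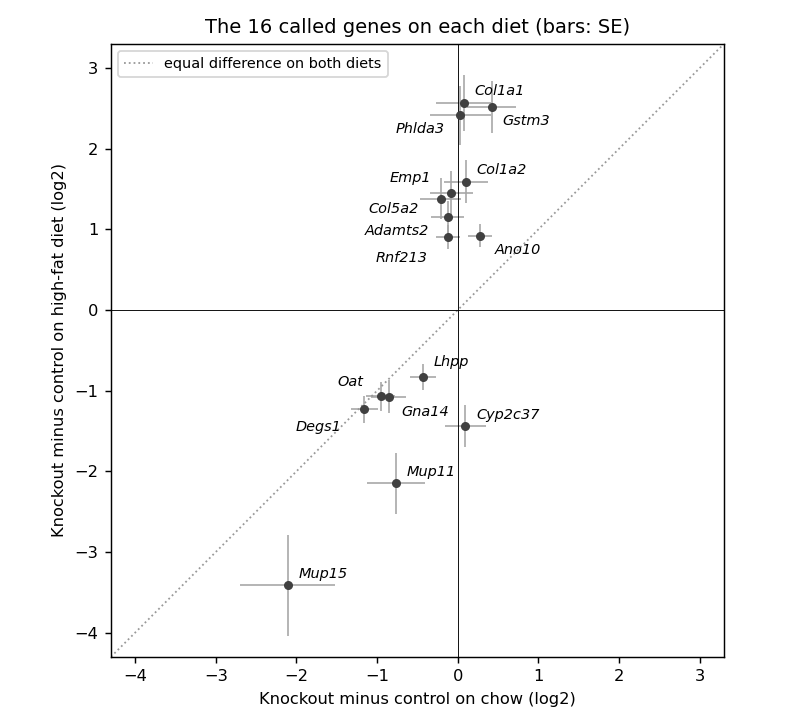
Log2 fold change of knockout over control on the high-fat diet (vertical) against that on chow (horizontal) for the 16 genes called on the high-fat diet, with bars of 1 SE. Genes were chosen by the vertical value, so their height is a description. Degs1, Oat and Gna14 lie near the dotted line of equal difference, and Col1a1, Gstm3 and Phlda3 lie near 0 on chow.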

How the data were processed

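RNA was total liver RNA, made into libraries with a stranded kit after ribosomal RNA depletion, per the labels' protocols. The deposited values are raw read counts per Ensembl gene, not normalized by the authors: they are whole numbers and the libraries differ in their totals. The submitters' processing notes list STAR 2.5.4a, DESeq2 and featureCounts 1.5.1 with the build GRCm38, and state no role or strand setting. All 16 columns matched a sample, and 53706 of 53801 IDs had a symbol and position in GENCODE M21.

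Groups came from the titles. Genes were filtered with filterByExpr (minimum count 10), scaled by TMM, and fitted with edgeR 4.0.16 in R 4.3.3 with 1 mean per group over 16 livers (12 residual degrees of freedom, common biological coefficient of variation 0.247). Benjamini-Hochberg adjustment of the quasi-likelihood p-values ran over all genes, with a threshold of 0.05. The SE is the size of the log2 fold change divided by the root of its F statistic, and CPM use TMM-scaled library sizes. Groups are said not to overlap where all 4 knockout livers lay above, or below, all 4 controls. The Degs1 test was a two-sided exact permutation of log2(CPM + 1) over 70 assignments. Replicate libraries differed beyond counting noise in every pair. The fit was also run on simulated counts. No rate of recovered or false calls is given for that run, so nothing is concluded from it about these livers.

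The genes and the 49 lists were chosen with earlier results of these data known, so no list is tested. The text names Degs1, all called genes, genes with the smallest p among those not called (up to 15 in each direction, groups apart, and mean log2 CPM not under 2) and up to 4 genes of each list by p, with some left out for length or after their values were seen, and some genes not reported here. Stellate and hepatocyte markers are named as checks of cell content, and other genes outside the rule are said to be so. Intervals of counting error are not given for single values, and p-values rest on 4 livers a group. Alternatives were DESeq2 1.42.0, limma-voom 3.58.1 with and without quality weights, other scaling and filters, only the high-fat livers, a covariate for the log2 unspliced share, length and GC offsets, and livers left out. Promoters come from RefSeq (GRCm38.p6), and windows from the longest GENCODE transcript.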

Additional observations from a re-analysis of the deposited data

Results flagged for a closer look

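For each named gene and each group of 4 high-fat livers, the highest or lowest liver is listed where its gap to the next liver took up more of the group's whole range than Dixon's 95% critical value for 4 samples allows. Chance flags about 1 in 20 groups, and 21 of 190 groups were flagged here.

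High-fat control 3 was above the other controls for Cers2 (357 CPM against 287 to 294), Phlda3 (1.15 against 0.746 to 0.8), Baat (575 against 333 to 362), Slc25a20 (240 against 121 to 138), Ndufv2 (173 against 83.1 to 90.1) and Ndufb9 (341 against 131 to 151 CPM). High-fat knockout 1 was above the other knockouts for Fbn1 (28 CPM against 19.5 to 20.5), Tnfaip3 (13.4 against 8.06 to 8.9), Cidec (50.7 against 1.17 to 8.66) and Hspa5 (888 against 629 to 644), and below them for Gbp3 (13.8 against 23 to 24.6 CPM). Knockout 2 was above the other knockouts for Cygb (9.93 CPM against 8.72 to 8.85) and Cdkn1a (17.5 against 12.2 to 12.6), and below them for Cyp3a13 (98.8 against 124 to 129 CPM). Knockout 3 was above the other knockouts for Gbp4 (14.3 CPM against 7.15 to 7.72), Cd8a (2.98 against 0.52 to 0.866), Ccl5 (2.72 against 0.599 to 0.936) and Lck (3.3 against 0.823 to 0.936 CPM). Knockout 4 was above the other knockouts for Cyp2j5 (685 CPM against 587 to 602) and Acta2 (5.99 against 2.24 to 2.7), and below them for Mki67 (6.72 against 10.1 to 10.8 CPM).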

How the results depend on the processing

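The count of 16 genes called on the high-fat diet was 15 with DESeq2's size factors in edgeR, 13 with length and GC offsets and 12 without high-fat control 3 and chow knockout 1. It was 633 with DESeq2, 31 with limma-voom, 287 with quality weights, 34 with upper-quartile factors, 964 without a filter on low counts and 32 with a minimum count of 50. It was 1 with only the high-fat livers, 0 with the unspliced share as a covariate and 2 without high-fat controls 3 and 4 together, the last chosen after seeing the data. Leaving out each of the 16 livers in turn gave 3 to 31. All 16 genes were among the calls of DESeq2, both limma-voom fits, upper-quartile factors and both other filters, and 7 of them with length and GC offsets, which split 10 higher and 3 lower, against 27 and 7 with upper-quartile factors. The cause of these differences was not tested.

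The interaction count of 0 was 83 with DESeq2, 9 with limma-voom with quality weights and 259 without a filter, and 0 to 1 with each liver left out. The Degs1 exact permutation p was 0.0286 under each alternative run, with differences of -1.35 to -1.04 on the log2 scale. That p is the lowest possible both with 70 assignments and with the 35 that remain when 1 liver is left out. Its staying there is therefore no sign of stability. No paired analysis was possible because the labels give no replicate number shared between groups. Of the list medians under alternatives 52 of 1287 moved by more than the spread between livers. Genes including Fasn, Insr, Cpt1a, Clec4f, Timd4 and Mup20, none of them called or within the rule for named genes, changed sign under at least 1 alternative and were left out of the text after this was seen. The remaining genes with a fold change in the text kept their direction under the alternatives run, which that choice in part fixed and which is no sign of stability. Genes near 3 counts per library, such as Cd8a, are limited by depth.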

Other observations

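Genes of the endoplasmic reticulum chaperones and the unfolded protein response, which fold secreted proteins in the compartment where ceramide is made, were on the lower side, with 0 called by edgeR or DESeq2 and 4 at an unadjusted edgeR p under 0.05. Of 29 genes tested, 26 had a lower mean in the high-fat knockouts, 2 were lower in every knockout liver (6.9%, against 7.78% of all genes) and the median log2 difference was -0.25. Hspa5, the main chaperone of the compartment, was at 858, 1207, 913 and 1122 CPM in controls and 888, 644, 629 and 636 CPM in knockouts, so that knockout 1 lay within the controls. Pdia3, a disulfide isomerase, was at 389 to 447 CPM in controls and 281 to 352 CPM in knockouts. Without high-fat controls 3 and 4 all 29 had a lower mean, 19 were below both remaining controls in every knockout liver (65.5%, against 14.8% of all genes) and the median was -0.35. Only 3 of the 29 then had an unadjusted p under 0.05.

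Circadian clock genes had 0 of 19 that separated the groups and a median of 0.01, with 0 called by edgeR or DESeq2 and 1 at an unadjusted edgeR p under 0.05. The acute phase proteins, which liver secretes in inflammation, had 0 of 29 called by edgeR and 1 called higher by DESeq2. At an unadjusted edgeR p under 0.05 were 4 higher and 6 lower. Their median was -0.06, with 1 lower in every knockout liver (3.4%, against 7.78% of all genes). Without high-fat controls 3 and 4 the median was -0.03, and 6 were higher and 2 lower in every knockout liver. Those are 20.7% and 6.9%, against 11.6% and 14.8% of all genes in that fit. There 5 higher and 1 lower had an unadjusted p under 0.05. Of 34 lysosome and autophagy genes 0 were called by edgeR and 2 by DESeq2, 1 higher and 9 lower had an unadjusted edgeR p under 0.05, and the median was -0.14, or -0.03 without high-fat controls 3 and 4. In every knockout liver 1 was higher (2.9%, against 5.46% of all genes) and 4 were lower (11.8%, against 7.78%).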
